A study of Mus musculus with 9 samples.

Results

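The comparison set the 6 libraries of the subclones SCC1 and SCC2 together against the 3 libraries of their parent, the mouse tumour line LLC1, and took the genes whose 6 subclone values all lay below, or all above, the 3 LLC1 values. Of 15768 gene symbols in the table, 1959 had all 6 subclone values below LLC1 and 1721 had all 6 above. Among the former, 20 genes had a mean of at least 1 FPKM in LLC1 and a mean under 0.1 FPKM in SCC1 and in SCC2, and 0 genes showed the mirror of that pattern. FPKM counts the fragments on a gene relative to its length and to the depth of its library.

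LLC1 is a cell line from a Lewis lung carcinoma of a mouse, widely grown as a transplanted tumour. SCC1 and SCC2 were each grown from a single LLC1 cell by limiting dilution and kept under the same culture conditions for 5 to 8 passages. All 9 libraries, 3 per line, came from untreated wild-type tumour cells, and the series' title sets growth in the animal against the cells' own proliferation. Each subclone is 1 clone, so the 6 subclone libraries stand for 2 clones, and whether the 3 libraries of a line were separate cultures is not stated in the labels. P-values therefore speak only to the spread among these 9 samples, and that spread may be technical.

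A tumour line in culture is a population of cells that can differ in their genomes and in heritable expression states. A clone keeps the state of its founding cell, while the parent gives an average over many cells, and cells of a clone start out alike. In bulk RNA, fewer cells that express a gene and less RNA per cell cannot be told apart.

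Libraries held 17094808 to 19398657 fragments as worked back from the FPKM values, and for a gene of median length 3 fragments amounted to 0.0447 to 0.0506 FPKM. Genes above 0 numbered 14106, 14044 and 14022 in the LLC1 libraries, against 13607 to 13636 in SCC1 and 13561 to 13671 in SCC2. Each subclone library thus detected fewer genes than each LLC1 library. Of the 10519 genes with at least 1 FPKM in at least 3 libraries, the set tested, 1427 lay on the lower side (13.6%) and 1658 on the higher side (15.8%). Below that filter, the lower side held 532 further genes and the higher side 63. LLC1 lay between the subclones, with every library of one subclone below it and every library of the other above, for a further 2527 tested genes (24.0%).

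Falls went further than rises. The median ratio of the subclone mean to the LLC1 mean was 0.789 for the lower side and 1.18 for the higher side. Of the lower side, 143 genes had a ratio under 0.5 and 31 a ratio under 0.1, whereas 28 genes of the higher side had a ratio over 2 and 1 gene a ratio over 10. At the limit of detection, 62 genes were at 0 in all 6 subclone libraries and above 0 in the 3 LLC1 libraries. Of these, 25 were on chromosome 9, which held 584 of the 10519 tested genes. All of the 62 but Lysmd2 were under the filter for testing, so the tested genes are not a like background for them. The reverse, 0 in LLC1 and above 0 in all 6 subclone libraries, held for 3 genes, Fscn3, Serpinb1b and Tmem117. All 3 had means under 0.2 FPKM and were named after their values were seen. These counts are not on equal terms, since the first needs 3 libraries above 0 and the reverse needs 6.

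Across all tested genes, limma called 6683 of 10519 (63.5%) at an adjusted p of 0.05, with 2973 lower (28.3%) and 3710 higher (35.3%) in the subclones. A change of at least 2-fold on the log2(FPKM + 1) scale, which understates the change of low genes, was reached by 94 called genes in the lower direction (0.894%) and 9 in the higher (0.0856%). This fit gives each subclone its own mean, so the difference between the clones does not count as spread. With all 6 subclone libraries as a single group, 1857 genes were called (17.7% of those tested, 902 lower and 955 higher). They included 897 of the 1427 genes on the lower side and 944 of the 1658 on the higher side. Both sides were chosen from the same values, so a raised share there follows from the choice. The subclones themselves differed at 8031 genes (76.3%) and also at 938 of the genes on the lower side (65.7%) and 995 of those on the higher side (60.01%), so a common direction against LLC1 often came with unequal levels. Adjusted p-values below are from the limma fit across all tested genes.

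The 20 genes present in LLC1 and near 0 in both subclones had LLC1 means of 1.06 to 5.38 FPKM and a highest single subclone value of 0.176 FPKM. Promoter windows of 4 of them are shown because genes of this set were low together while their promoters differ widely in CpG content. Each is the 250 bases before the transcription start on the strand of the gene, 5′ to 3′, from RefSeq on GRCm38.p6, with each CG dinucleotide in capitals. Tpbg lies on the plus strand (chr9:85842130-85842379), Cd34 on the plus strand (chr1:194938571-194938820), Scamp5 on the minus strand (chr9:57468061-57468310) and Tbc1d2b on the minus strand (chr9:90270770-90271019).
Tpbg: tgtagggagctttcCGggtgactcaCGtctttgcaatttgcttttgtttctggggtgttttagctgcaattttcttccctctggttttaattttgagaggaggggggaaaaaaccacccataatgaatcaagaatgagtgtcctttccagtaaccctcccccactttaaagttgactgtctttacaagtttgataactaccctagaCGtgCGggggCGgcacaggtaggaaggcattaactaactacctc
Cd34: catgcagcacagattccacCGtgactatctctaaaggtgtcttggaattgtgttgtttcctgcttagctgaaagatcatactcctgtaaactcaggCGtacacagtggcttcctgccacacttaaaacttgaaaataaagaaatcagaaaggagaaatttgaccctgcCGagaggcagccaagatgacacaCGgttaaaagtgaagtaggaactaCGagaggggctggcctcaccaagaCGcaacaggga
Scamp5: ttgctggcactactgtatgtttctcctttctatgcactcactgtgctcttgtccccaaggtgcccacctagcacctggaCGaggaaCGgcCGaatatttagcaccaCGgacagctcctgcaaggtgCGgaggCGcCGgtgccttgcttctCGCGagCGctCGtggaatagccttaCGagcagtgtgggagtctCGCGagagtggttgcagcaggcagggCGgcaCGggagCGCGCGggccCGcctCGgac
Tbc1d2b: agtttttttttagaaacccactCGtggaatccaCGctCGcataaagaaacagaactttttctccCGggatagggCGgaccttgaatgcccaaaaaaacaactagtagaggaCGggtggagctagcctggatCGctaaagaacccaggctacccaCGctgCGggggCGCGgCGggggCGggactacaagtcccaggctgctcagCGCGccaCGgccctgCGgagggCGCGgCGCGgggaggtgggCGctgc
The windows of Tpbg and Cd34 hold 5 and 6 CG dinucleotides and those of Scamp5 and Tbc1d2b hold 21 and 22, against a median of 17 over the tested genes with a window. Across the 13 of the 20 genes with a window in the RefSeq table, the count ran from 5 in Tpbg and Thsd4 to 38 in Dipk2a. The start used for Dipk2a did not match a transcript of the gene. Among windows with a matching start the highest count was 22, in Tbc1d2b. With 65% of the set covered, under the 80% needed, a comparison of the set with other genes is void. Methylation was not measured.

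**Figure D1:**
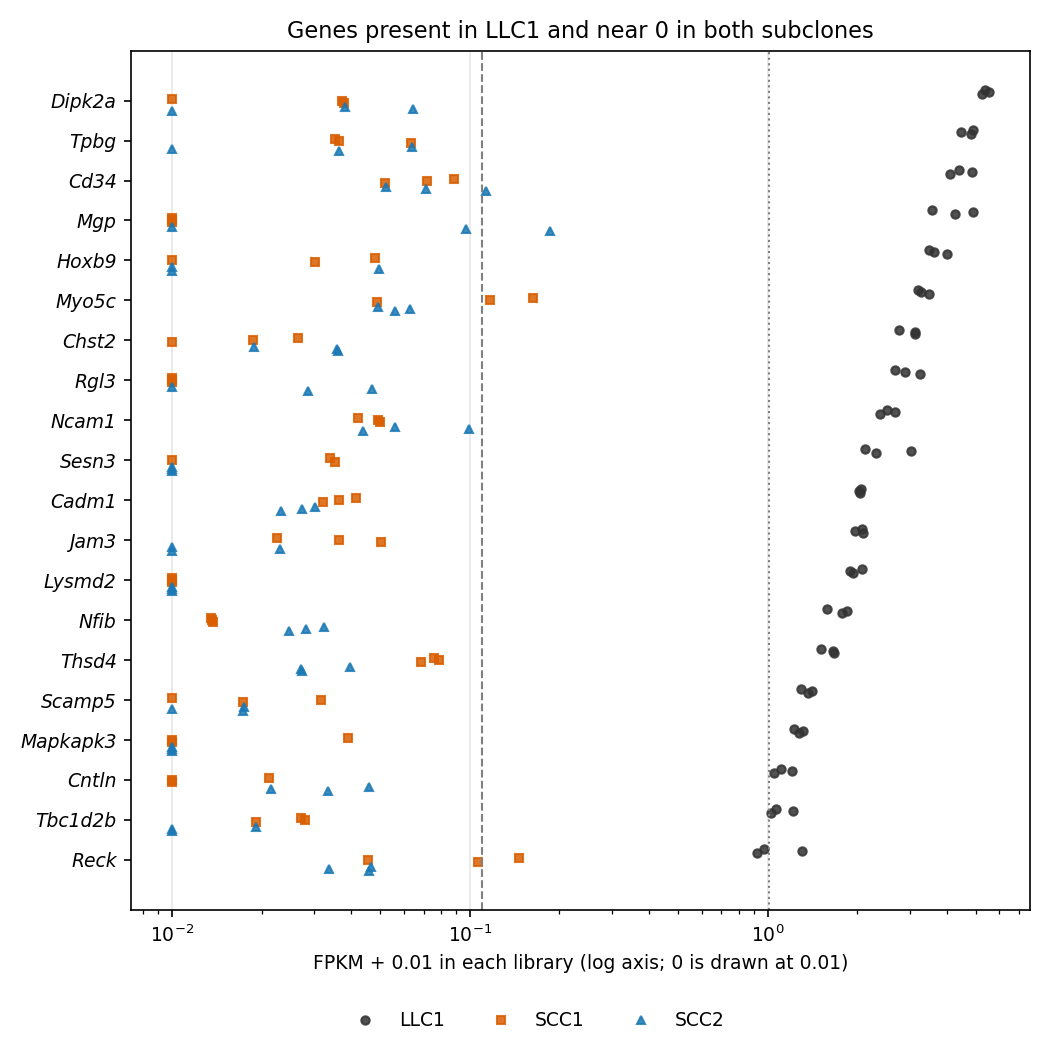
Each row is a gene present in LLC1 and near 0 in both subclones, and each symbol is a library, placed by FPKM + 0.01 on a log axis (0 is drawn at 0.01). The dotted line is the limit of 1 FPKM on the LLC1 mean and the dashed line the limit of 0.1 FPKM on each subclone mean, so 1 or 2 libraries of Mgp, Myo5c, Reck and Cd34 lie beyond the dashed line. The LLC1 circles lie apart from all 6 subclone symbols in every row.

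Several of the 20 encode proteins of the cell surface. Tpbg encodes the trophoblast glycoprotein 5T4, a surface protein with leucine-rich repeats, and had 4.89, 4.46 and 4.81 FPKM in the LLC1 libraries, 0.0252, 0.0263 and 0.0535 in SCC1 and 0.054, 0 and 0.0265 in SCC2. Cd34, a sialomucin of blood progenitors and vessel lining, had 4.39, 4.85 and 4.1 FPKM in LLC1, 0.0786, 0.0617 and 0.0417 in SCC1 and 0.0422, 0.0613 and 0.103 in SCC2. In fragments, Tpbg had 1043 in LLC1, 8 in SCC1 and 6 in SCC2, and Cd34 had 630, 9 and 10, summed over 3 libraries each. The 2 genes were thus clearly seen in the parent and all but absent from the clones. Ncam1, Cadm1 and Jam3 are immunoglobulin-type adhesion molecules. Ncam1 had 2.52 ± 0.151 FPKM in LLC1, 0.0371 ± 0.00429 in SCC1 and 0.0564 ± 0.0291 in SCC2 (mean ± SD, n = 3 each, as in all such values below). Cadm1 had 2707 fragments in LLC1, 37 in SCC1 and 23 in SCC2, and Jam3 had 449, 6 and 1. Every LLC1 library of these 3 genes lay above every subclone library by a wide margin.

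Others of the set act in the matrix or in secretion. Mgp, the matrix Gla protein that restrains calcification, had 3.56, 4.9 and 4.26 FPKM in LLC1, 0 in all SCC1 libraries and 0, 0.0868 and 0.176 in SCC2. Its 141 LLC1 fragments against 0 in SCC1 put it at least 48.97-fold lower there, counting a floor of 3 fragments over the group. Reck, a membrane-anchored inhibitor of metalloproteases, had 260 fragments in LLC1, 23 in SCC1 and 8 in SCC2, and had the lowest LLC1 mean of the set, 1.06 FPKM. Thsd4, a thrombospondin-repeat protein of microfibrils, had 811, 34 and 11 fragments. Chst2, a sulfotransferase that modifies sugar chains, had 3 ± 0.212 FPKM in LLC1, 0.00838 ± 0.00825 in SCC1 and 0.0202 ± 0.00984 in SCC2. Scamp5, a secretory carrier membrane protein, had 542, 4 and 2 fragments, and Dipk2a, the gene of the set with the highest level in LLC1, had 5.38, 5.53 and 5.22 FPKM there against 0, 0.0273 and 0.0277 in SCC1 and 0.028, 0.0542 and 0 in SCC2. In each of these genes the few subclone fragments were spread over libraries of both clones, apart from Mgp, whose 3 came from SCC2.

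The remaining members act inside the cell. Hoxb9, a homeobox factor of body patterning, had 3.47, 3.6 and 3.98 FPKM in LLC1, and 3 fragments in SCC1 and 2 in SCC2 against 536 in LLC1. Nfib, a transcription factor of lung development, had 1379 fragments in LLC1, 3 in SCC1 and 15 in SCC2. Sesn3, a sestrin of the stress response, had 289 fragments in LLC1, 2 in SCC1 and 0 in SCC2, at least 98.5-fold lower in SCC2. Mapkapk3, a kinase downstream of p38, had 242 fragments in LLC1, 2 in SCC1 and 0 in SCC2, at least 82.5-fold lower in SCC2. Rgl3, an exchange factor of Ral GTPases, had 458 fragments in LLC1, 0 in SCC1 (at least 159-fold lower) and 3 in SCC2. Lysmd2, a LysM-domain protein, was the gene with no fragment in any subclone library, against 62, 55 and 53 in the LLC1 libraries, which makes it at least 59.04-fold lower in SCC1 and 57.96-fold lower in SCC2. Myo5c, a class V myosin, Tbc1d2b, a Rab GTPase-activating protein, and Cntln, a protein of the centriole, had 1264, 356 and 560 fragments in LLC1, and 58, 6 and 14 over both subclones. For the 19 of the 20 that were tested, the change on the log2 scale ran from -1.05 to -2.64. The subclones were not called different from each other at any of the 19 (smallest limma adjusted p 0.240). That does not show the clones to be alike, since the pseudocount of 1 flattens differences at such low levels. In fragments, Thsd4 had 12, 12 and 10 in the SCC1 libraries and 5, 3 and 3 in SCC2. Nfib went the other way, with 1, 1 and 1 in SCC1 and 6, 5 and 4 in SCC2. These fragment differences were not tested.

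Limits set on means decide who belongs to the set. Just inside the limit of 0.1 FPKM were Myo5c (SCC1 mean 0.0994) and Reck (0.0893), and just outside were Dock6, an exchange factor of small GTPases (0.102 in SCC2), and Aldoc, a brain-type aldolase (a highest subclone mean of 0.114 in SCC2). Just inside the limit of 1 FPKM in LLC1 were Reck and Tbc1d2b (1.09), and just outside were St6galnac2, a sialyltransferase (0.963), and Smad6, an inhibitor of BMP signalling (0.875). With presence set at 0.5 FPKM the set held 37 genes, and at 2 FPKM it held 12. With near 0 set as a mean under 0.05 FPKM it held 14, and under 0.2 FPKM it held 29.

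Of the 20 genes, 14 lie on chromosome 9, 3 on chromosome 4 (Reck, Nfib and Cntln) and 3 elsewhere (Cd34 on chromosome 1, Mgp on chromosome 6 and Hoxb9 on chromosome 11). Taken over the genes with an LLC1 mean of at least 1 FPKM, the set held 14 of 578 on chromosome 9 (2.42%), 3 of 616 on chromosome 4 (0.487%) and 3 of 9161 on the other chromosomes (0.0327%).

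The tilt of chromosome 9 was not confined to those genes. Of its 584 tested genes, 294 were on the lower side (50.3%) and 11 on the higher side (1.88%), beside 13.6% and 15.8% of all tested genes. The median log2 change of chromosome 9 genes from the LLC1 mean was -0.179, -0.180 and -0.192 in the SCC1 libraries, -0.167, -0.152 and -0.172 in the SCC2 libraries, and within 0.00261 of 0 in the LLC1 libraries. Both clones were shifted by a like amount, and the 6 values lay clear of the parent. In windows of 20 Mb along the chromosome, 47.5% to 57.8% of tested genes were on the lower side up to 120 Mb, and 21.9% of 32 genes beyond it. The chromosome supplied 7.79% to 7.83% of the summed FPKM in LLC1 libraries, 6.55% to 6.56% in SCC1 and 6.66% to 6.70% in SCC2.

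Chromosome 4 had the next highest share on the lower side, at 222 of 614 tested genes (36.2%) against 15 on the higher side (2.44%). Chromosomes 17, 10 and 15 had far smaller shares on the lower side (17.3%, 15.9% and 13.7%), close to or little above that of all tested genes, with 3.76%, 4.61% and 1.86% on the higher side. On chromosome 4 the clones differed in size. The median change of its genes was -0.330, -0.327 and -0.328 in the SCC1 libraries, but -0.0397, -0.0361 and -0.0389 in SCC2. The lower side took 61 of 101 genes between 40 and 60 Mb (60.4%), where SCC2 was down as well (median -0.20, SCC1 -0.41), and 0 of 38 genes in the first 20 Mb, where the SCC2 median was 0.31. The window from 60 to 80 Mb held 19 genes, too few to be weighed alone.

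Rises gathered on other chromosomes. On the X chromosome 168 of 342 tested genes were on the higher side (49.1%) and 4 on the lower (1.17%), and on chromosome 13 the counts were 181 of 405 (44.7%) and 16 (3.95%). The X medians were 0.172, 0.162 and 0.164 in SCC1 and 0.230, 0.227 and 0.237 in SCC2. The chromosome 13 medians were 0.0994, 0.0965 and 0.0928 in SCC1 and 0.357, 0.355 and 0.361 in SCC2, so that the rise there was larger in SCC2. Chromosomes 1 and 8 had 31.1% and 28.3% of their genes on the higher side. Outside chromosomes 4 and 9, 910 of 9303 tested genes were on the lower side (9.78%). Of all tested genes, 94 (0.894%) were called at least 2-fold lower. They included 25 of 584 tested genes on chromosome 9, 14 of 614 on chromosome 4 and 13 of 880 on chromosome 11. Chromosome 11 had the most tested genes. The number of copies of each chromosome was not measured. Gene results below carry these shifts, and 7 of 156 named genes (Rbl2, Polk, Sdha, Cox7b, Uqcrc1, Rbbp4 and Dnmt1) were no longer called once each chromosome's median was removed from each library, a check chosen after the data were seen.

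**Figure D2:**
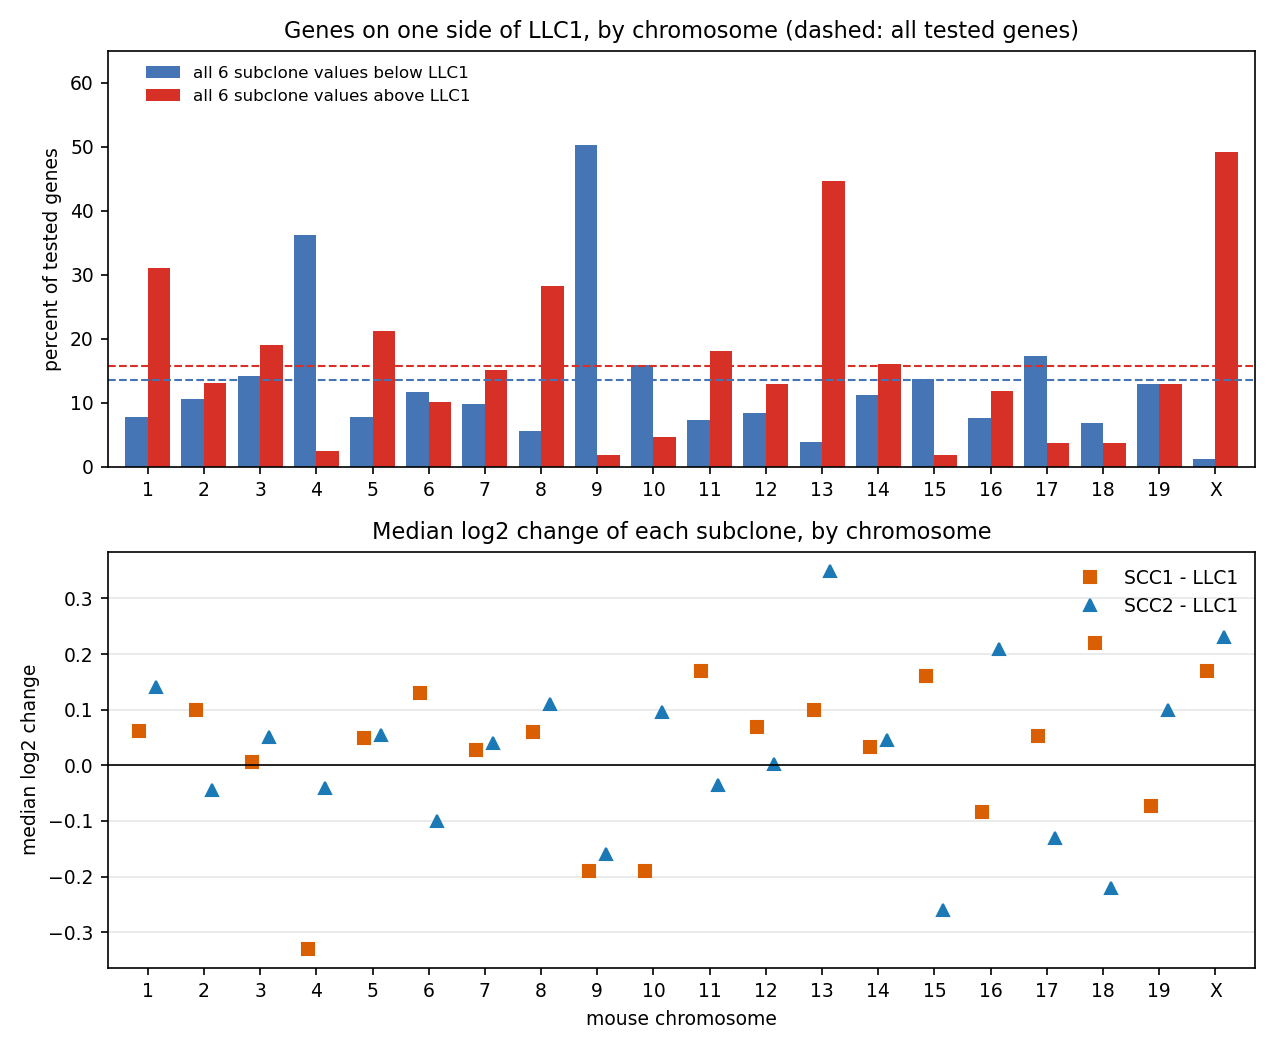
The upper panel gives, for each chromosome, the percent of tested genes with all 6 subclone values below (blue) or above (red) the 3 LLC1 values, with dashed lines at the 13.6% and 15.8% of all tested genes. The lower panel gives the median log2 change of each subclone from LLC1: chromosome 9 sits below 0 and X above 0 by like amounts in both clones, while chromosomes 4 and 13 are shifted unequally.

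The largest falls at genes with at least 5 FPKM included secreted and surface factors. Sema3f, a secreted semaphorin that binds neuropilins, had 10.8, 11 and 11.6 FPKM in LLC1, 0.541, 0.548 and 0.51 in SCC1 and 1.12, 1.06 and 1.07 in SCC2, a log2 change of -2.76 (SE 0.0379, limma adjusted p = 9.09e-13). All 6 subclone libraries were near 1 FPKM or below it. Enpp2, the lysophospholipase D autotaxin that makes lysophosphatidic acid, had 48.8, 49.5 and 47.6 FPKM in LLC1, 12.9, 13.2 and 13.4 in SCC1 and 7.35, 7.91 and 7.47 in SCC2 (-2.17, SE 0.0275), with SCC2 the lower clone. Cthrc1, a secreted glycoprotein of remodelling tissue, had 13.4, 13.7 and 12.6 FPKM in LLC1, 0.0442, 0.0462 and 0.141 in SCC1 and 3.27, 3.4 and 2.93 in SCC2 (-2.74), so that the fall was close to complete in SCC1 and partial in SCC2. Nradd, a relative of the neurotrophin receptor with a death domain, had 5.33 ± 0.357 FPKM in LLC1, 0.107 ± 0.0292 in SCC1 and 0.934 ± 0.145 in SCC2 (-2.11).

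Intracellular proteins were among the other large falls. Glipr2, a Golgi-associated protein, had 10.0, 10.1 and 9.18 FPKM in LLC1, 1.45, 1.28 and 1.65 in SCC1 and 0.192, 0.239 and 0.349 in SCC2 (-2.62). Nes, the intermediate filament nestin of progenitor cells, had 18.7, 18.5 and 18.1 FPKM in LLC1, 6.1, 6.28 and 6.09 in SCC1 and 2.78, 2.74 and 2.82 in SCC2 (-1.90). In both genes SCC2 was the lower clone and every subclone library lay well below LLC1. Anxa6, a calcium-dependent membrane-binding annexin, had 12 ± 0.459 FPKM in LLC1, 0.62 ± 0.108 in SCC1 and 4.67 ± 0.38 in SCC2. Crabp1, which binds retinoic acid, had 6.42 ± 0.769, 1.29 ± 0.126 and 0.721 ± 0.247, and Ckb, the brain-type creatine kinase, had 10.8 ± 0.509, 3.9 ± 0.268 and 2.65 ± 0.126. Trp53i11, a p53-inducible gene, had 6.8 ± 0.346, 1.79 ± 0.229 and 1.31 ± 0.0672 FPKM, with like falls in both clones. Rgs16, which shortens G protein signals, had 6.24 ± 0.367, 3.13 ± 0.133 and 0.518 ± 0.143 FPKM.

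For 3 of the 15 the pooled change was carried mainly by 1 clone. Tmem176b, a membrane protein, had 104, 108 and 109 FPKM in LLC1, 87.5, 90.0 and 92.8 in SCC1 and 9.56, 8.96 and 8.83 in SCC2. Its neighbour Tmem176a had 65.9 ± 0.909 FPKM in LLC1, 53 ± 1.04 in SCC1 and 5.68 ± 0.458 in SCC2. Plod1, a lysyl hydroxylase of collagen, had 86, 81.2 and 86.4 FPKM in LLC1, 18.7, 17.2 and 17.3 in SCC1 and 53.5, 53.4 and 55.8 in SCC2. SCC2 was thus far below SCC1 for the Tmem176 genes, and SCC1 far below SCC2 for Plod1. With the 6 subclone libraries as a single group these 3 genes were not called (limma adjusted p = 0.219, 0.201 and 0.0662), while the other 12 were.

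**Figure D3:**
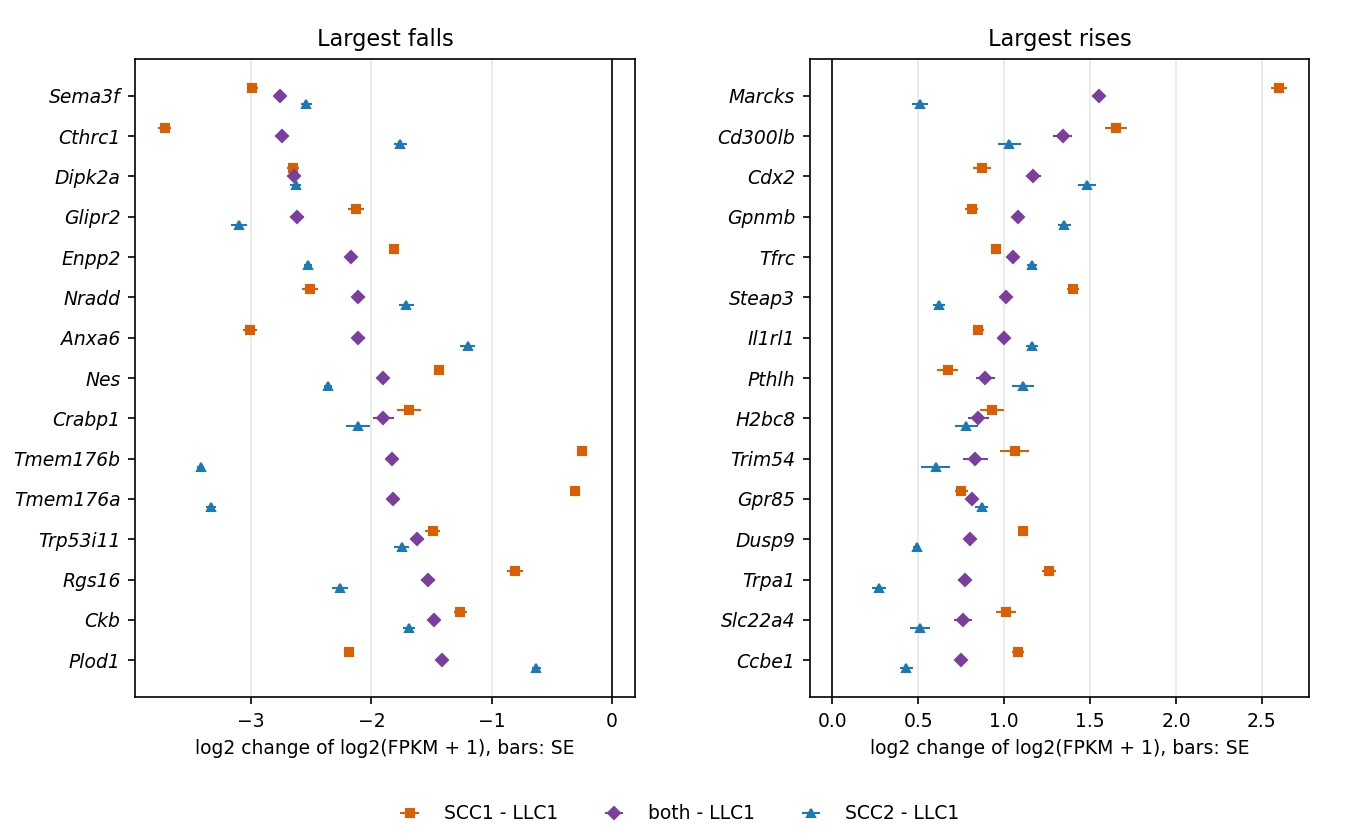
The left panel gives the 15 largest falls and the right panel the 15 largest rises, as log2 changes from LLC1 on the log2(FPKM + 1) scale with standard errors. Orange squares are SCC1, blue triangles SCC2 and purple diamonds both subclones together. The 2 clones lie on the same side of 0 in every row, and differ from each other by a log2 difference of 1 or more at Tmem176b, Tmem176a, Marcks, Cthrc1, Anxa6, Plod1 and Rgs16.

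Rises were smaller, and the largest included genes of iron uptake. Tfrc, the transferrin receptor, had 16.9, 16.7 and 17.3 FPKM in LLC1, 34.3, 34.5 and 32.6 in SCC1 and 39.4, 38.2 and 39.9 in SCC2 (log2 change 1.05, SE 0.0249, limma adjusted p = 2.89e-11). Steap3, the endosomal ferrireductase that acts after transferrin uptake, had 6.71, 6.46 and 6.34 FPKM in LLC1, 18.1, 18.9 and 19.3 in SCC1 and 10.8, 10.5 and 10.2 in SCC2 (1.01). Both genes were higher in all 6 subclone libraries, with Tfrc higher in SCC2 and Steap3 higher in SCC1. No list of iron genes was tested.

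Receptors and secreted factors were among the other rises. Gpnmb, a transmembrane glycoprotein, had 61.3, 54.7 and 58.7 FPKM in LLC1, 100.3, 103 and 105 in SCC1 and 144, 149 and 156 in SCC2 (1.08). Il1rl1, the receptor of interleukin 33, had 7.58, 7.47 and 7.24 FPKM in LLC1, 13.7, 14.8 and 14.1 in SCC1 and 17.7, 17.6 and 18.2 in SCC2 (1.0). In both, the 3 lines formed separate steps, with SCC2 the highest. Cd300lb, a myeloid immunoreceptor, had 1.44 ± 0.139 FPKM in LLC1, 6.68 ± 0.608 in SCC1 and 3.98 ± 0.255 in SCC2. Pthlh, the parathyroid hormone-like hormone that raises blood calcium in some cancers, had 2.24 ± 0.12, 4.16 ± 0.331 and 6 ± 0.556 FPKM. Gpr85, an orphan receptor, had 3.73 ± 0.106, 6.97 ± 0.148 and 7.64 ± 0.254. The order of the 2 clones was not shared across these genes: Cd300lb was highest in SCC1, Pthlh and Gpr85 in SCC2.

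Cdx2, a homeobox factor of intestine, had 2.52, 2.26 and 2.45 FPKM in LLC1, 5.11, 5.6 and 4.95 in SCC1 and 8.91, 8.12 and 8.44 in SCC2 (1.17, SE 0.0446). Dusp9, a phosphatase that inactivates ERK kinases, had 49.6, 46.8 and 48.1 FPKM in LLC1, 106, 105 and 105 in SCC1 and 68.1, 68.3 and 68.3 in SCC2 (0.80). Both lay above LLC1 without overlap, in opposite order of the clones. Marcks, a substrate of protein kinase C, had 0.204, 0.25 and 0.195 FPKM in LLC1, 6.27, 6.27 and 6.56 in SCC1 and 0.739, 0.717 and 0.725 in SCC2, and Trpa1, a cation channel of irritant sensing, had 6.03, 5.46 and 5.79, 15.5, 14.8 and 15.5 and 7.54, 7.09 and 6.86. These 2 rises were mainly in SCC1, and they were not called with the subclones as a single group (limma adjusted p = 0.121 and 0.11), unlike the other 13. The remaining rises were of H2bc8, a histone H2B gene with near-identical copies whose counts are uncertain, Trim54, a RING-finger protein of muscle, Slc22a4, a carnitine and ergothioneine transporter, and Ccbe1, a matrix-associated factor of lymphatic growth, with log2 changes of 0.85, 0.83, 0.76 and 0.75.

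Gene groups were then read against the background of 13.6% of tested genes on the lower and 15.8% on the higher side, and a median log2 change of 0.0229 over all tested genes. Counts by limma stand beside a background of 28.3% lower and 35.3% higher. The lists were put together with earlier results of these data known and were not tested as sets.

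Matrix genes were mostly lower. Of 33 tested collagens and matrix proteins, which form the scaffold around cells, 17 were on the lower side (51.5%) and 2 on the higher (6.06%), and limma called 29 lower and 4 higher. Their median log2 change was -0.37 (SCC1 -0.61, SCC2 -0.0913). Sparc, a collagen-binding matrix glycoprotein, had 185, 180.3 and 185 FPKM in LLC1, 68.7, 68.8 and 70.2 in SCC1 and 123, 122 and 122 in SCC2 (-0.99, limma adjusted p = 1.25e-12). Col18a1, the basement membrane collagen that yields endostatin, had 148, 149 and 151 FPKM in LLC1, 111, 111 and 113 in SCC1 and 76.3, 75.1 and 74 in SCC2. Sparc was lowest in SCC1 and Col18a1 lowest in SCC2, each with all 6 values under LLC1. Fbn1, the microfibril protein fibrillin 1, had 18.9 ± 0.503 FPKM in LLC1, 3.63 ± 0.0155 in SCC1 and 12.3 ± 0.509 in SCC2, and was not called with the subclones as a single group (limma adjusted p = 0.0706), where the counts for the list were 8 lower and 1 higher.

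Of 28 matrix proteases, inhibitors and matrix-modifying enzymes, 8 were on the lower side (28.6%) and 3 on the higher (10.7%). Plau, the protease urokinase, had 89.4 ± 0.462 FPKM in LLC1, 68.6 ± 0.951 in SCC1 and 34.6 ± 0.64 in SCC2, and Ctsl, the lysosomal protease cathepsin L, had 168 ± 3.01, 284 ± 0.877 and 187 ± 2.89. Loxl3, a lysyl oxidase that cross-links collagen, had 25.1 ± 0.693, 11.1 ± 0.343 and 19.6 ± 0.628. Each of these 3 had a large change in 1 clone and a small one in the other, and none of them was called with the subclones as a single group (limma adjusted p = 0.07, 0.121 and 0.0606).

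Adhesion and guidance genes tilted lower to a lesser degree, at the median mainly in SCC1. Of 23 integrins and adhesion receptors 6 were on the lower side (26.1%) and 1 on the higher (4.35%), with a median of -0.0559 (SCC1 -0.12, SCC2 0.0140). Vcam1, a ligand of leukocyte integrins, had 38.7, 37.7 and 38.8 FPKM in LLC1, 18.7, 19.3 and 19 in SCC1 and 17.2, 17.7 and 16.8 in SCC2 (-1.05). Sdc2, a heparan sulfate proteoglycan of the membrane, had 57.6 ± 0.405 FPKM in LLC1, 37.8 ± 0.73 in SCC1 and 37.7 ± 0.507 in SCC2. The 2 clones had close levels of both genes. Its relative Sdc4 had 86.3 ± 2.48, 79.2 ± 1.02 and 68.6 ± 1.17 FPKM, and was not called with the subclones as a single group (limma adjusted p = 0.0525). Of 30 axon guidance and semaphorin genes 8 were on the lower side (26.7%) and 2 on the higher (6.67%), with a median of -0.15 (SCC1 -0.13, SCC2 -0.0226). Besides Sema3f, the semaphorins Sema6d (2.79 ± 0.00855 FPKM in LLC1, 1.4 ± 0.0231 in SCC1, 1.5 ± 0.0106 in SCC2), Sema3e (-0.43) and Sema4c (-0.70) fell.

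Of 20 mesenchymal genes 9 were on the lower side (45%) and 2 on the higher (10%), while limma called 11 lower and 7 higher. The summed level of that list was nonetheless higher in the subclones. It was 8274.7 to 8408.5 FPKM in LLC1, 8531.4 to 8715.9 in SCC1 and 8546.4 to 8618.1 in SCC2. Fn1, the matrix protein fibronectin, had 448, 448 and 450.1 FPKM in LLC1, 310.3, 309.6 and 311 in SCC1 and 338, 337 and 330.4 in SCC2 (-0.47). Snai1, a transcription factor of the epithelial-mesenchymal transition, had 18.5 ± 0.447 FPKM in LLC1, 11.6 ± 0.852 in SCC1 and 12.1 ± 0.871 in SCC2, and Pdgfra, a growth factor receptor of mesenchymal cells, had 5.18 ± 0.212, 3.35 ± 0.105 and 3.04 ± 0.0788. All 3 were lower in both clones by like amounts. Cnn2, an actin-binding calponin, had 180.2 ± 4.86, 104 ± 3.32 and 149.8 ± 2.52 FPKM (limma adjusted p = 0.0501 with the subclones as a single group). By counts, epithelial genes did not take the opposite course: of 9 tested, 1 was on the lower side and 0 on the higher, and limma called 6 lower and 1 higher. The junction protein Jup, plakoglobin, was the 1 on the lower side, at 1.43 ± 0.0275 FPKM in LLC1, 0.289 ± 0.0513 in SCC1 and 0.111 ± 0.00175 in SCC2. The summed level of the epithelial list rose in SCC1 and fell in SCC2. It was 400.7 to 409.2 FPKM in LLC1, 521.8 to 531.2 in SCC1 and 289.7 to 290.4 in SCC2.

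Signalling genes that act on growth and tissue form were mostly lower where they were on one side. The list of YAP/TAZ targets holds genes switched on by the effectors of the Hippo pathway, and also their partner Tead1. Of its 25 tested genes 14 were on the lower side (56%) and 1 on the higher (4%), with a median of -0.28 in each subclone. With the subclones as a single group, 13 were still called lower and 0 higher. Of the 14, 3 lie on chromosomes 4 or 9, with Amotl2 on chromosome 9. Amotl2, an angiomotin that feeds back on YAP, had 12.2, 12.4 and 12.9 FPKM in LLC1, 4.75, 5.11 and 5.39 in SCC1 and 6.92, 6.83 and 6.52 in SCC2 (-0.97). Axl, a receptor kinase, had 136 ± 1.66 FPKM in LLC1, 112 ± 0.613 in SCC1 and 107 ± 1.43 in SCC2, and Tead1, the DNA-binding partner of YAP, had 32.2 ± 0.308, 24.6 ± 0.34 and 26.1 ± 0.362. Crim1, a membrane protein that binds growth factors, had 17.6 ± 0.405, 11.7 ± 0.0631 and 12.9 ± 0.259. The levels of these genes in SCC1 and SCC2 were closer to each other than to LLC1.

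Of 28 TGF-beta and BMP genes 11 were on the lower side (39.3%) and 3 on the higher (10.7%), and 5 of the 11 lie on chromosomes 4 or 9. Tgfbr2, the type II receptor of TGF-beta, had 21, 20.9 and 21.6 FPKM in LLC1, 16.4, 15.1 and 16.3 in SCC1 and 11.4, 10.8 and 10.8 in SCC2. Smad3, which carries the signal to the nucleus, had 18.9 ± 0.619 FPKM in LLC1, 13 ± 0.606 in SCC1 and 14.3 ± 0.174 in SCC2, and both genes lie on chromosome 9. Id3, a target that blocks helix-loop-helix factors, had 128, 123 and 125 FPKM in LLC1, 55.2, 58.5 and 58.7 in SCC1 and 65.2, 67 and 66.3 in SCC2 (-1.01). Receptor, transducer and target were each under LLC1 in all 6 subclone libraries, but list members were named only if on one side. The median of the list was -0.24 (SCC1 -0.0251, SCC2 -0.24). Ski, a repressor of the pathway, was lower too (-0.54), but not with the subclones as a single group (limma adjusted p = 0.0715). Id3 and Ski lie on chromosome 4.

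Of 21 Wnt genes 8 were on the lower side (38.1%) and 0 on the higher. Fzd6, a frizzled receptor, had 7.53 ± 0.323 FPKM in LLC1, 4.32 ± 0.275 in SCC1 and 2.23 ± 0.185 in SCC2. The co-receptor Lrp5, the antagonist Dkk2 and Ctnnb1, the effector beta-catenin, were lower, with log2 changes of -0.76, -0.51 and -0.26, and were not called with the subclones as a single group (limma adjusted p = 0.126, 0.142 and 0.0936). Of 16 receptor tyrosine kinases 7 were on the lower side (43.8%) and 0 on the higher, and limma called 11 lower and 0 higher. Besides Axl and Pdgfra, they included Egfr, the receptor of epidermal growth factor (6.91 ± 0.357 FPKM in LLC1, 5.39 ± 0.0863 in SCC1, 4.03 ± 0.162 in SCC2) and Igf1r, that of insulin-like growth factor 1 (16.6 ± 0.409, 12.8 ± 0.121 and 12.9 ± 0.435).

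Hox genes, which keep a positional identity, were mostly lower. Of 21 tested, 12 were on the lower side (57.1%) and 0 on the higher, with a median of -0.37 (SCC1 -0.41, SCC2 -0.28) and 0 members on chromosomes 4 or 9, and limma called 17 lower and 1 higher. Besides Hoxb9, which was near 0 in both clones, Hoxb6 had 1.39, 1.74 and 1.99 FPKM in LLC1, 0.16, 0.0334 and 0.102 in SCC1 and 0.24, 0.498 and 0.202 in SCC2. Hoxb3 of the same cluster had 1.67 ± 0.221 FPKM in LLC1, 0.905 ± 0.0289 in SCC1 and 0.607 ± 0.0382 in SCC2. The 3 genes lie on chromosome 11, of whose 880 tested genes 7.27% were on the lower side. Hoxa5 had 9.66 ± 0.494, 4.03 ± 0.421 and 7.73 ± 0.305 FPKM and was not called with the subclones as a single group (limma adjusted p = 0.0846). The strand setting of the counting is unknown here, so antisense genes in these clusters are uncertain. Of 8 imprinted genes 2 were on the lower side: Peg3, a zinc-finger gene used from the paternal copy, had 3.38, 3.76 and 3.35 FPKM in LLC1, 0.0196, 0.0206 and 0.0156 in SCC1 and 0.126, 0.153 and 0.0878 in SCC2, and Peg10, a retrotransposon-derived gene, had 31.7 ± 0.998, 10.3 ± 0.231 and 16 ± 0.512. Both were far below LLC1 in the 2 clones. Of 19 DNA methylation and PRC2 enzymes, which silence genes, 3 were on the lower side and 4 on the higher, among them Rbbp7, a histone-binding subunit (0.31), Suz12, a PRC2 subunit (0.17, limma adjusted p = 0.127 as a single group), Rbbp4 (-0.22, 0.0777 as a single group) and Dnmt1, the maintenance methyltransferase (-0.21).

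Among the lists with at least 8 tested members, cholesterol genes had the highest share on the lower side. Of 25 tested genes of cholesterol synthesis and uptake, 17 were on the lower side (68%) and 1 on the higher (4%), 4 of the 17 on chromosomes 4 or 9, with a median of -0.25 (SCC1 -0.19, SCC2 -0.25). Insig1, a sensor that holds back the sterol-regulated factors, had 40.9, 41.1 and 41.2 FPKM in LLC1, 36.1, 35.5 and 35.3 in SCC1 and 30.0, 29.2 and 29.6 in SCC2. Mvd, an enzyme of the mevalonate pathway, had 32.4, 33.2 and 33.6 FPKM in LLC1, 24, 26.2 and 25.8 in SCC1 and 20.1, 19.3 and 18.9 in SCC2. Both formed steps from LLC1 through SCC1 to SCC2. With the subclones as a single group, 12 of the 25 were called lower and 0 higher. Of 23 fatty acid synthesis genes 9 were on the lower side (39.1%) and 2 on the higher (8.70%). The desaturase Scd1 had 138, 138 and 137 FPKM in LLC1, 99.1, 98.2 and 100.2 in SCC1 and 105, 103 and 102 in SCC2. Acss2, which makes acetyl-CoA from acetate, had 19.9 ± 0.279 FPKM in LLC1, 14.2 ± 0.553 in SCC1 and 10.2 ± 0.223 in SCC2. Scd2, a second desaturase, and Fads1, which desaturates long chains, were lower, with log2 changes of -0.28 and -0.31.

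Genes of translation and energy moved less. Of 75 cytosolic ribosomal protein genes, 27 were on the lower side (36%) and 2 on the higher (2.67%), with a median of -0.0880 (SCC1 -0.0209, SCC2 -0.13), and 10 of the 27 were among the 11 that lie on chromosomes 4 or 9. Rpsa, a protein of the small subunit, had 1422 ± 8.8 FPKM in LLC1, 1026 ± 13.6 in SCC1 and 1056 ± 8.07 in SCC2, and Rps6, a target of growth signalling, had 833 ± 29.6, 527 ± 16 and 624 ± 2.05. Rplp1 and Rpl4 of the large subunit were lower, with log2 changes of -0.32 and -0.33. These 4 genes lie on chromosomes 4 and 9, and ribosomal protein genes have near-identical pseudogenes, so their counts are uncertain. Of 40 respiratory chain genes 12 were on the higher side (30%), 6 of them on chromosomes 13 or X, and 5 on the lower (12.5%), all 5 on chromosomes 4 or 9. Examples were Uqcrh of complex III on chromosome 4 (-0.47), Uqcrc1 of the same complex on chromosome 9 (-0.18, limma adjusted p = 0.0601 as a single group), Sdha of complex II on chromosome 13 (0.26) and Cox7b of complex IV on X (0.22). Of 35 glycolysis and hypoxia genes 6 were on the lower side and 5 on the higher. Pgk1, a glycolytic kinase on X, had 1168 ± 12.8 FPKM in LLC1, 1362 ± 6.27 in SCC1 and 1600.5 ± 22.9 in SCC2, and Aldoc had 1.43 ± 0.0669, 0.0994 ± 0.0488 and 0.114 ± 0.0202. Pfkp, a phosphofructokinase, and Slc16a3, a lactate exporter, changed mainly in 1 clone each (0.45 and -1.16, limma adjusted p = 0.12 and 0.22 as a single group).

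Proliferation genes were slightly higher. Of 54 cell cycle genes 17 were on the higher side (31.5%) and 4 on the lower (7.41%), and limma called 34 higher and 8 lower, with a median of 0.0942 and 11 higher and 3 lower with the subclones as a single group. Rrm2, the ribonucleotide reductase subunit, had 93.8, 92 and 92.3 FPKM in LLC1, 112, 109 and 111 in SCC1 and 116, 116 and 116 in SCC2. Mcm6, a subunit of the replicative helicase, had 83.9 ± 1.56 FPKM in LLC1, 101 ± 0.184 in SCC1 and 97.5 ± 1.26 in SCC2. Cyclins Ccnd2 (0.38) and Ccnb1 (0.30) rose in unequal amounts (limma adjusted p = 0.127 and 0.0519 as a single group). Myc, a transcription factor of growth, had 189, 183 and 181 FPKM in LLC1, 236, 239 and 236 in SCC1 and 227, 227 and 236 in SCC2 (0.34, limma adjusted p = 3.10e-08). The replication clamp Pcna (0.16) and cyclin D1, Ccnd1 (0.10), were also on the higher side.

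The proliferation antigen Mki67 overlapped between the groups, at 67.5 ± 1.8 FPKM in LLC1, 68.1 ± 0.717 in SCC1 and 76.5 ± 2.22 in SCC2 (limma adjusted p = 0.00279, and 0.316 as a single group). The mitotic kinase Cdk1 was lower than LLC1 in SCC1 and higher in SCC2 (37.2 ± 0.825, 31.6 ± 0.793 and 42.8 ± 0.917 FPKM), and its pooled change of -0.0184 did not pass (limma adjusted p = 0.512). Cdkn1a, the kinase inhibitor p21, was higher in SCC1 and lower in SCC2 (115 ± 4.4, 173 ± 4.23 and 105 ± 0.817 FPKM), so that its pooled call (limma adjusted p = 5.47e-06, and 0.518 as a single group) describes neither clone. Of 13 cell cycle inhibitors 2 were on each side, the tumour suppressor Trp53 (0.23) and the pocket protein Rbl2 (0.11, limma adjusted p = 0.0711 as a single group) above LLC1, and the kinase inhibitor Cdkn1b (-0.26) and the stress gene Gadd45b (-0.56) below it.

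Stress response lists did not share a direction in the 2 clones. Of 26 p53 targets 3 were on each side (11.5%). Plk2, a polo-like kinase, fell (-0.68), as did Sesn1, a sestrin (-0.54), while Zmat3, an RNA-binding protein, and Polk, a translesion polymerase, rose (0.19 and 0.31), with limma adjusted p = 0.113 for Plk2 and 0.197 for Zmat3 as a single group. Of 30 NRF2 targets 8 were on the lower side (26.7%) and 6 on the higher (20%). Sqstm1, an autophagy receptor, had 87.5 ± 0.645 FPKM in LLC1, 126 ± 1.54 in SCC1 and 107 ± 1 in SCC2, and Txn1, the redox protein thioredoxin on chromosome 4, had 386 ± 6.13, 272 ± 6.76 and 324 ± 5.01. The quinone reductase Nqo1 (0.59) and the transketolase Tkt (-0.31) changed mainly in SCC1 (limma adjusted p = 0.114 and 0.239 as a single group).

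Of 34 ATF4 targets and enzymes of serine and one-carbon metabolism, limma called 26 higher and 5 lower, yet only 6 were on the higher side (17.6%) and 1 on the lower (2.94%), and 1 was called in each direction as a single group. Slc7a11, the cystine transporter, had 2.1 ± 0.117 FPKM in LLC1, 3.47 ± 0.13 in SCC1 and 2.89 ± 0.155 in SCC2. Phgdh of serine synthesis, the lipoprotein receptor Vldlr and the stress factor Ddit3 were higher, with log2 changes of 0.34, 0.24 and 0.40 (limma adjusted p = 0.11, 0.0751 and 0.139 as a single group). Of 26 genes of the unfolded protein response 1 was on the lower side and 2 on the higher, namely the translocon subunit Sec61b (-0.46), the chaperone Canx (0.12, limma adjusted p = 0.105 as a single group) and Sel1l of protein degradation (0.14).

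Ligands of immune receptors were lower or not on one side. Of 13 tested checkpoint and NK-cell ligands 6 were on the lower side (46.2%) and 0 on the higher, with a median of -0.43 (SCC1 -0.20, SCC2 -0.34). Limma called 9 of them lower and 2 higher. Vsir, the checkpoint protein VISTA, had 3.95, 3.89 and 3.79 FPKM in LLC1, 2.02, 1.95 and 1.92 in SCC1 and 1.4, 1.39 and 1.33 in SCC2. Cd276, the checkpoint ligand B7-H3, had 31.5, 31.6 and 32.9 FPKM in LLC1, 22.7, 21.5 and 22.7 in SCC1 and 24, 24.4 and 24.1 in SCC2, and the adhesion ligand Nectin1 had 3.76 ± 0.115, 2.31 ± 0.122 and 1.99 ± 0.136. All 6 subclone values were below LLC1 for these 3, of which Cd276 and Nectin1 lie on chromosome 9. Lgals9, the lectin galectin 9, fell mainly in SCC1 (-0.84, limma adjusted p = 0.149 as a single group).

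Of 17 genes of MHC class I presentation 4 were on the lower side (23.5%) and 2 on the higher (11.8%). H2-D1, a classical class I heavy chain, had 129, 128 and 133 FPKM in LLC1, 94.8, 99.7 and 100.2 in SCC1 and 98.2, 103 and 100.5 in SCC2. H2-T23, the non-classical chain Qa-1 read by NK cells, had 12.4 ± 0.722 FPKM in LLC1, 7.58 ± 0.563 in SCC1 and 5.92 ± 0.436 in SCC2. H2-K1 fell (-0.62) and the trimming peptidase Erap1 rose (0.33), both mainly in SCC2 (limma adjusted p = 0.0747 and 0.0814 as a single group), and class I genes resemble each other, so fragments may be split between them. Of 15 interferon response genes 1 was on the lower side, the signal transducer Stat2 (5.94 ± 0.37 FPKM in LLC1, 3.66 ± 0.187 in SCC1, 4.53 ± 0.121 in SCC2), and 0 on the higher, and limma called 6 lower and 0 higher. Of 20 chemokines and cytokines 5 were on the lower side (25%) and 0 on the higher. Limma called 8 lower and 6 higher, with a median of -0.0187. Their summed level was 1609 to 1681 FPKM in LLC1, 1516 to 1545 in SCC1 and 1836 to 1909 in SCC2. Those on the lower side included Cx3cl1, a membrane-bound chemokine (-0.41), and Csf1, the growth factor of macrophages (-0.18). Others were Cxcl16, a chemokine and scavenger receptor (-0.57), and Kitl, the ligand of Kit (-0.43, limma adjusted p = 0.21 as a single group).

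**Figure D4:**
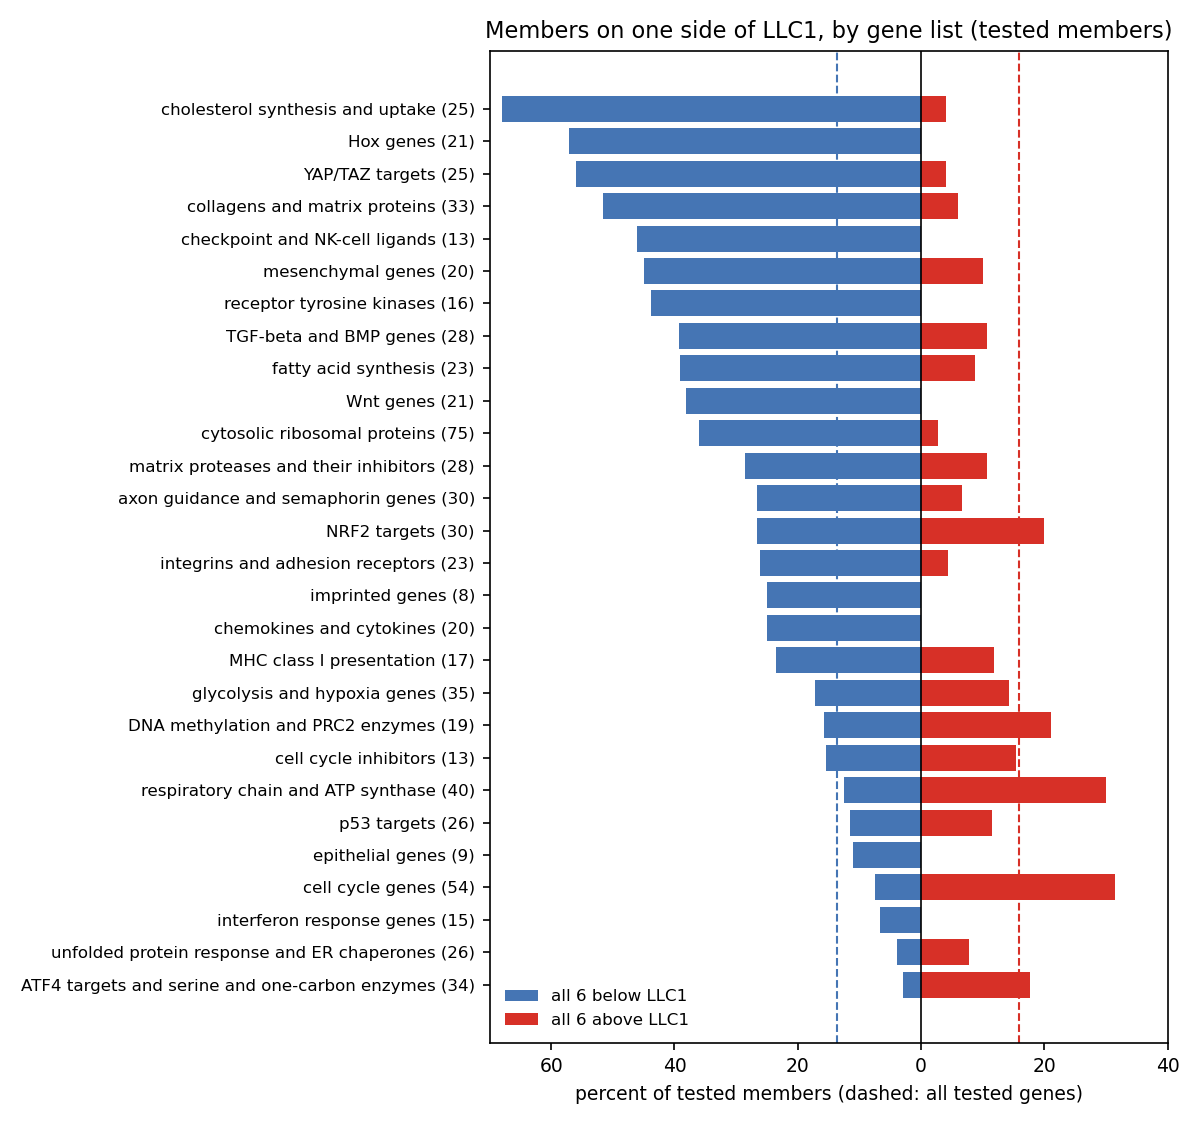
Each bar pair is a gene list with the number of tested members in brackets, showing the percent of them with all 6 subclone values below (blue, to the left) or above (red, to the right) the 3 LLC1 values. Dashed lines mark the 13.6% and 15.8% of all tested genes. Cholesterol genes (17 of 25), Hox genes (12 of 21) and YAP/TAZ targets (14 of 25) reach furthest to the left, and cell cycle genes (17 of 54) furthest to the right.

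Cell types other than tumour cells were looked for through their markers, whose part in the results was not tested. Of 18 macrophage and myeloid markers 12 were in the table and 5 tested, and their summed level was 18.4 to 19.7 FPKM in LLC1, 31.0 to 35.4 in SCC1 and 21.1 to 21.5 in SCC2. Csf1r, Lyz2, Fcgr1 and Cx3cr1, which mark macrophages, had means under 0.2 FPKM in every line. Other markers of the list were present and highest in SCC1: Cd68, a lysosomal glycoprotein, had means of 4.11 FPKM in LLC1, 9.14 in SCC1 and 3.05 in SCC2, the mannose receptor Mrc1 had 0.267, 2.11 and 0.235, and the neutrophil antigen Ly6g had 0.0208, 1.14 and 0. Limma called the pooled change of these 3 higher, although none had all 6 subclone values above LLC1. The surface receptor Cd14 was on the higher side (0.47) and the integrin Itgax on the lower (-0.20, limma adjusted p = 0.0567 as a single group). The 3 lymphocyte markers in the table summed to at most 0.318 FPKM in any library. Endothelial markers summed to 52.7 to 54.2 FPKM in LLC1, 47.1 to 48.7 in SCC1 and 44.3 to 48.4 in SCC2, nearly all of it from Eng, a TGF-beta co-receptor (-0.22, limma adjusted p = 0.0609 as a single group), and Egfl7, with the defining markers Pecam1, Cdh5 and Kdr under 0.02 FPKM. Fibroblast markers summed to 581 to 607 FPKM in LLC1, 263 to 273 in SCC1 and 724 to 744 in SCC2, most of it from the collagen chain Col3a1, so that matrix genes shared with that list did not move one way. Of the fibroblast markers, Dcn, a matrix proteoglycan, and Acta2, smooth muscle actin, fell (-0.32 and -0.79, limma adjusted p = 0.0588 and 0.0963 as a single group), while Dpt, the matrix protein dermatopontin, had means of 6.70 FPKM in LLC1, 4.12 in SCC1 and 29.8 in SCC2, and Lum, the proteoglycan lumican, 0.725, 0.0865 and 0.994. Col1a1 and Col1a2 were under 0.5 FPKM in every line. Lung epithelial markers summed to at most 7.62 FPKM. Most of that came from Hopx, a homeodomain protein also used outside the lung, with means of 3.76 FPKM in LLC1, 1.45 in SCC1 and 5.94 in SCC2, and from Ager, a receptor of alveolar type I cells, with 0.892, 0.551 and 1.13. The surfactant gene Sftpc and the lung factor Nkx2-1 were near 0. Markers other than Cd14, Itgax, Eng, Dcn and Acta2 were singled out after their values were seen.

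**Figure D5:**
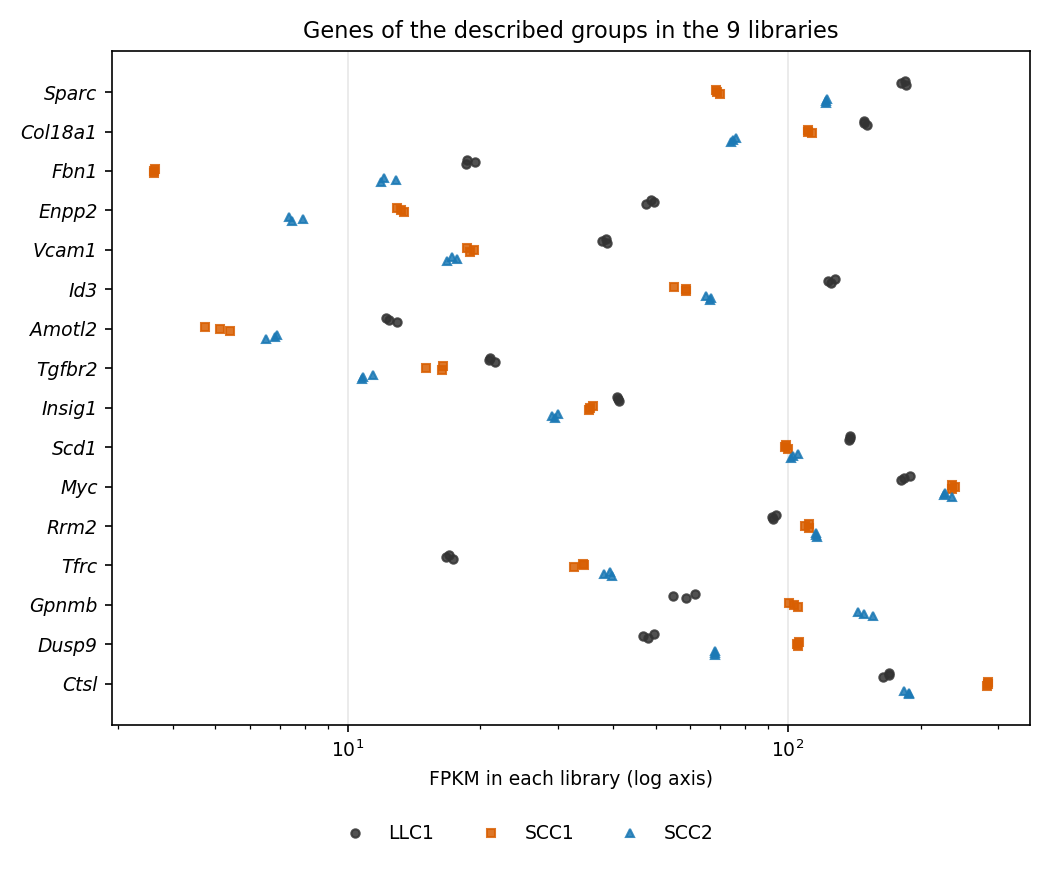
FPKM of 16 genes of the groups above in each of the 9 libraries, on a log axis, with LLC1 as circles, SCC1 as squares and SCC2 as triangles. For the first 10 genes, from Sparc to Scd1, all 6 subclone symbols lie left of the LLC1 circles, and for the last 6, from Myc to Ctsl, they lie right of them, while the distance between the clones varies from gene to gene.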

How the data were processed

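RNA sequencing of 9 libraries, 3 each of LLC1, SCC1 and SCC2, was analysed, with groups and replicate numbers from the sample titles. The deposited values were FPKM, which the authors computed with cufflinks after Trimmomatic trimming and hisat2 alignment, per the series' design text. Read counts by HTSeq-count, which that text also names, were not used here. GRCm38 and mm10 stand as builds in the submitters' processing notes. Versions, annotation and strand setting were not given in the sources used here. The labels' protocols name a SMARTER kit after RNeasy extraction, while the design text names a TruSeq stranded kit after mirVana extraction.

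The 10519 of 15768 genes that reached 1 FPKM in 3 or more libraries were tested on log2(FPKM + 1), with a pseudocount of 1, in limma 3.58.1 (R 4.3.3) with the trend and robust options of eBayes. All 9 libraries entered 1 fit with line as the factor, and the comparison was the mean of SCC1 and SCC2 minus LLC1. P-values were two-sided and adjusted by Benjamini-Hochberg across the tested genes, with 0.05 as the threshold. A count of genes on one side uses the raw FPKM and no test. Chromosomes were matched by symbol to RefSeq for 15665 symbols. Whole fragments were worked back from the FPKM steps: all 12270 genes above 0 in every library came out whole within 0.001, and limma-voom was run on them as an alternative. Floors in fragments cover counting error only. Pairs of libraries of 1 line had a chi-square per gene of 1.19 to 1.69, so none were merged. The code was checked on simulated data.

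The compared genes and the 33 lists were chosen with earlier results of these data known. Genes are named by rule: every gene near 0 in both subclones, the 15 largest falls and rises among called genes on one side with a group mean of at least 5 FPKM (without predicted names), up to 4 called one-side members of each list by adjusted p, the genes nearest each limit, and, fixed by name, Cdkn1a, Myc, Ccnd1, Cdk1, Pcna and Mki67. Some genes that the rule names are not reported here. Promoter windows came from RefSeq on GRCm38.p6. Alternatives were other pseudocounts, filters, scalings, limma settings, a replicate block, and leaving out each library.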

Additional observations from a re-analysis of the deposited data

Results flagged for a closer look

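Single libraries stood apart among the 6 subclone libraries at 4 genes that are close to 0. They were Mapkapk3 with 0.0290 FPKM in SCC1 replicate 1, Ncam1 with 0.0893 FPKM in SCC2 replicate 2, Scamp5 with 0.0217 FPKM in SCC1 replicate 2 and St6galnac2 with 0.0807 FPKM in SCC1 replicate 3. The rule is set to pick about 1 in 20 groups by chance, a rate that need not hold for values of so few fragments. The first 3 values rest on 2, 16 and 3 fragments.

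Several named genes with all 6 subclone values on one side of LLC1 still differed between the clones by a log2 difference of 1 or more, called by limma. SCC2 was higher than SCC1 for Cthrc1 by 1.96, Anxa6 by 1.81, Plod1 by 1.56, Fbn1 by 1.52, Slc16a3 by 2.00, Lgals9 by 1.22 and Lrp5 by 1.04. The difference of SCC2 from SCC1 was -3.17 for Tmem176b, -3.02 for Tmem176a, -1.45 for Rgs16 and -2.09 for Marcks.

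For 7 lists the median change went one way in every SCC1 library and the other way in every SCC2 library, a difference that was not tested for the lists. Medians for SCC1 and SCC2 were 0.13 and -0.12 for cell cycle inhibitors, 0.31 and -0.13 for p53 targets, and 0.24 and -0.0991 for NRF2 targets. They were -0.37 and 0.64 for ATF4 targets with serine and one-carbon enzymes, and -0.16 and 0.13 for the unfolded protein response. Macrophage and myeloid markers had medians of 0.99 and -0.0366 over 5 genes, and the 1 tested lung epithelial marker had -0.96 and 0.54. The pooled value of these lists therefore describes neither clone.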

How the results depend on the processing

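Treating the 6 subclone libraries as a single group moved the number of called genes from 6683 to 1857 (902 lower, 955 higher). The number called and changed at least 2-fold, 103 with 94 lower and 9 higher, was 46 (39 lower) among genes at 5 FPKM or more, 228 (196 lower, 32 higher) with a pseudocount of 0.1 and 254 (221 lower, 33 higher) with limma-voom. With quantile normalization 16 were higher, and the lower share of 2-fold calls was 81.4% against 91.3%. The set near 0 in both subclones held 37 genes with presence at 0.5 FPKM and 12 at 2 FPKM. It held 14 with near 0 as a mean under 0.05 FPKM and 29 under 0.2 FPKM. No direction reversed among the 156 named genes with a fit. Their calls were lost for 44 as a single group, 7 with chromosome medians removed and 1 (Itgax) with quantile normalization. Leaving out 1 library at a time gave 6138 to 6552 called genes and ended no call of a named gene. Of 570 list medians under alternatives 11 changed sign, all but 1 within 0.03 of 0, the exception being fibroblast markers at 0.13 among genes at 5 FPKM or more. Replicate numbers did not pair the libraries, since the deviations of same-numbered libraries correlated between -0.0683 and 0.0890. A fit with the replicate number as a block called 6586 genes. For a gene of median length, levels under about 0.05 FPKM, near 3 fragments, were not distinguishable from 0 at this depth, while longer genes such as Cadm1 were seen at lower levels.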

Other observations

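Further genes with no fragment in any subclone library were seen at low levels in LLC1, and those with the highest means are named here after their values were seen. Insyn1, a component of inhibitory synapses, had a mean of 0.563 FPKM in the 3 LLC1 libraries, Cish, a feedback inhibitor of cytokine signalling, 0.477, and Ctsh, the lysosomal protease cathepsin H, 0.453. These 3 genes lie on chromosome 9. Zfp37, a zinc-finger gene on chromosome 4, had 0.324 FPKM, and Pcbd1, a cofactor of the factor HNF1 on chromosome 10, had 0.249. With LLC1 means under 1 FPKM they were not tested.

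Genes on the 2 sides differed somewhat in promoter CpG content. A ratio of observed to expected CpG over 0.6 in the 300 bases around the start was found for 70.5% of the 1166 lower-side genes with a RefSeq window, for 83.3% of the 1393 higher-side genes and for 78.0% of the 8522 tested genes. The shares are descriptions of these windows and were not tested.

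Where LLC1 lay between the clones, SCC1 was the lower clone for 1090 genes and SCC2 for 1437. Fscn3, Serpinb1b and Tmem117, the genes at 0 in LLC1 and above 0 in all 6 subclone libraries, had SCC1 means of 0.0293, 0.0642 and 0.0192 FPKM and SCC2 means of 0.0398, 0.0495 and 0.130 FPKM, levels of a few fragments.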
